A study of Mus musculus with 4 samples.

Results

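The genes described here are 8 of the 32285 genes in the files: *Yap1*, *Wwtr1* (which encodes TAZ) and *Tead1*, and the genes *Ccn1*, *Ccn2*, *Thbs1*, *Ankrd1* and *Amotl2*, which are known as targets of YAP and TAZ. They were listed by symbol and selected on the measured levels of *Ccn2* and *Thbs1*, which were higher in chamber endocardial cells (EdCs) of mutant hearts. The values of all 8 in that comparison are therefore a description and carry no test. Hearts of control (Tie2flfl) and *Tie2-cko* (Nfatcre-Tie2flfl) embryos were dissected at E10.5, and their single cells were sequenced on the 10x platform in 4 libraries, of which 5 and 7 were controls and 6 and 8 were *Tie2-cko*. All embryos carried floxed *Tie2* (gene symbol *Tek*) on both alleles, and the mutants also carried a Cre recombinase knocked in at *Nfatc1*, which is active in the endocardium and its descendants and not in most vessels. According to the methods the cells came from the whole cardiogenic region, and each genotype was represented by 2 hearts of the same litter, so p-values measure the spread between hearts of few embryos.

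YAP and TAZ are transcriptional coactivators that carry mechanical and growth signals into the nucleus. The kinases LATS1 and LATS2 of the Hippo pathway phosphorylate them and hold them in the cytoplasm, and those that reach the nucleus bind DNA through the TEAD proteins. CCN1 and CCN2 are secreted matricellular proteins, thrombospondin 1 (*Thbs1*) is a matrix glycoprotein that can release latent TGF-beta, ANKRD1 is a protein of the cardiac sarcomere and nucleus, and AMOTL2 is a junctional protein that binds YAP and restrains it. In the heart at this stage, EdCs line the chambers and, in the cushions, give rise to valve mesenchyme.

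On the mouse build GRCm38 (GENCODE M21), *Ccn2* is at chr10:24595442-24598683 (plus strand), *Ccn1* at chr3:145646976-145649981 (minus), *Thbs1* at chr2:118111876-118127133 (plus), *Ankrd1* at chr19:36111961-36120099 (minus) and *Amotl2* at chr9:102716672-102733418 (plus). *Yap1* is at chr9:7931999-8004596 (minus), *Wwtr1* at chr3:57455649-57575910 (minus) and *Tead1* at chr7:112679318-112906807 (plus).

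Because TEAD proteins tether YAP and TAZ to DNA, the promoters were searched for the TEAD motif CATTCC on both strands (GGAATG on the reverse strand). RefSeq promoter windows on GRCm38.p6, read here as the 250 bases before a transcript start, were matched by symbol for 5 members, *Ccn1*, *Ankrd1*, *Amotl2*, *Yap1* and *Wwtr1*. The motif was found in the windows of all 5, while 4153 of 32851 windows over all genes (12.6%) held it. It stood at 2 places in the *Ankrd1* window and at 1 place in each of the others. Other windows overlap annotated GENCODE exons, by all 250 bases for *Ankrd1*, 136 for *Amotl2*, 17 for *Yap1* and 34 for 1 of the *Wwtr1* windows. A match of these 6 letters is a description of the sequence and not a site of binding. The whole window of *Ccn1* (chr3:145649986-145650235, minus strand), which overlaps no annotated GENCODE exon, is given first, and for the other members the motif with 12 bases on each side. Capitals mark the motif, and each sequence is written 5′ to 3′ on the strand of its gene.
Ccn1: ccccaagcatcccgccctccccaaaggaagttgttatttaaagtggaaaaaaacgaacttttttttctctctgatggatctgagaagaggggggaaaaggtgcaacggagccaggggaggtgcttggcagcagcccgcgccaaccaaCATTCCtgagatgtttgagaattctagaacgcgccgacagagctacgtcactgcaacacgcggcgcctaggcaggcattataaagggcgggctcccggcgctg
Ankrd1 (chr19:36120037-36120066): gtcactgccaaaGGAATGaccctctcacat
Ankrd1 (chr19:36119950-36119979): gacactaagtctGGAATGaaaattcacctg
Amotl2 (chr9:102717727-102717756): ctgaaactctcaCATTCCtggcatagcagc
Yap1 (chr9:8004720-8004749): cgggagtctgcaGGAATGtagcgacgcgca
Wwtr1 (chr3:57576029-57576058): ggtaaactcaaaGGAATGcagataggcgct
The FOXO motif TGTTTAC, searched on both strands, and the CArG box bound by SRF were not matched in the windows of these 5 genes. Over all windows, 3.17% held the FOXO motif and 1.47% the CArG box.

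After filters on genes, UMIs and mitochondrial share and the removal of likely doublets, 33419 cells remained (10097, 8449, 5684 and 9189 in libraries 5, 7, 6 and 8), with a median of 14878 to 25875 UMIs per cell. The level of a gene is given as its UMIs per 10000 in each cell, and a library's level is the mean of its cells. Cell types were named from marker genes. Chamber EdCs numbered 375, 591, 137 and 454 cells in libraries 5, 7, 6 and 8, and cushion EdCs 269, 467, 130 and 476. Library 6 had the fewest EdCs and the deepest ones, with a median of 27558 UMIs in chamber EdCs against 11032 to 14836 in the other 3 libraries. A cluster of 1562 cells with few UMIs, whose leading genes included *Emcn* and *Gpr182* of the chamber EdC markers, was left out of these counts. It held 574, 398, 350 and 240 cells in libraries 5, 7, 6 and 8. *Tek* checked the labels. Its level in chamber EdCs was 0.898 and 1.01 in the control libraries and 0.126 and 0.151 in the *Tie2-cko* libraries, and it fell by 2.58 on the log2 scale (SE 0.20, edgeR quasi-likelihood test, adjusted p = 0.012). In cushion EdCs *Tek* was at 0.890 and 1.64 against 0.366 and 0.289 (log2 fold change -1.98, edgeR adjusted p = 0.115), and in epicardial cells, which express *Tek* at a low level and lie outside the *Nfatc1* lineage, it was at 0.229 and 0.267 against 0.208 and 0.224.

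Cell types were ranked by the mean level over the 4 libraries. Clusters that got no cell type name were not ranked. Besides those with few UMIs, they were led by *Prrx1* and *Col9a1* (1659 cells), *Cxcl13* and *Barx1* (1108), *Lhx2* and *Shisa3* (992), and *Afp* and *Apoa2* (618). *Ccn1* and *Ccn2* ranked highest in the cardiomyocytes (CMs) of the sinus venosus and atrioventricular canal (SV/AVC). There *Ccn1* was at 0.672 ± 0.334 (SD, n = 4 libraries) and *Ccn2* at 0.314 ± 0.160. In outflow tract CMs *Ccn1* stood at 0.448 ± 0.217 and *Ccn2* at 0.268 ± 0.152, and the ranges of the libraries overlapped between these CM classes. Ventricular CMs had much less of either, *Ccn1* at 0.0987 ± 0.0443 and *Ccn2* at 0.0867 ± 0.0427. Outside the myocardium, the mesenchymal cells (MCs) held *Ccn1* at 0.353 ± 0.0706 and *Ccn2* at 0.193 ± 0.0499, and epicardial cells held *Ccn1* at 0.367 ± 0.0693 and *Ccn2* at 0.156 ± 0.0346. The MC clusters differed. The cluster led by *Stmn4*, *Postn* and *Inhba* had *Ccn2* at 0.268, 0.563, 0.231 and 0.435 in libraries 5, 7, 6 and 8, whereas in the cluster led by *Twist1* and *Msx1* it was at 0.103 to 0.145. The largest MC cluster, led by *Gm14226* and *Twist1*, lay between and overlapped both (0.122 to 0.241). EdCs were low for *Ccn2*, and cushion EdCs, at 0.0314 ± 0.0223, came 12th of the 13 ranked cell types, above red blood cells alone. Of the clusters not ranked, that led by *Afp* held *Ccn2* at 0.0262, 0.00125 and 0.00480 in libraries 5, 6 and 8. That led by *Lhx2* held *Ccn1* at 0.266, 0.184, 0.361 and 0.771 in libraries 5, 7, 6 and 8. These orders describe the clusters and were not tested, since the clusters were made from the same cells.

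*Thbs1* had another distribution. Its mean level over the libraries was highest in cushion EdCs, at 1.56, 1.17, 1.63 and 1.51 in libraries 5, 7, 6 and 8, and among the ranked cell types next in MCs, at 0.905, 0.933, 1.02 and 0.981, and the ranges of these neighbouring cell types did not overlap. Chamber EdCs held a mean of 0.144 ± 0.0628, and outflow tract CMs, whose libraries overlapped them, 0.0706 ± 0.0286. CMs of the ventricles, atria and SV/AVC held means of 0.0143 or less. After each cell was thinned to 5000 UMIs, 32.9 to 44.5% of cushion EdCs held a *Thbs1* UMI, against 2.70 to 8.66% of chamber EdCs and at most 0.578% of red blood cells. Red blood cells should lack the transcript, and their median depth was 22811.5 to 60281 UMIs, against 11032 to 27558 in chamber EdCs and 11524 to 26185 in cushion EdCs. The cluster of immune cells and platelets had *Thbs1* at 0.481, 0, 0.739 and 2.0 in libraries 5, 7, 6 and 8, a range that spanned cushion EdCs and MCs and passed cushion EdCs in library 8. There *Thbs1* was found with the megakaryocyte gene *Itga2b*. Cells with an *Itga2b* UMI and no UMI of the macrophage gene *Csf1r* had a level of 0.883 (130 cells) in library 5, 1.1 (94 cells) in library 6 and 5.40 (13 cells) in library 8, while cells with *Csf1r* and without *Itga2b* did not exceed 0.0155. Library 7 had only 2 such *Itga2b* cells, and they held no *Thbs1* UMI.

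*Ankrd1* was a gene of CMs. Outflow tract CMs were at 15.8 ± 0.630 and SV/AVC CMs at 14.8 ± 0.629, with overlapping libraries, followed by atrial CMs at 9.88 ± 2.46 and ventricular CMs at 3.56 ± 0.793, each below the class before it in every library. All other ranked cell types had a mean of 0.570 or less. In chamber EdCs there were 11 to 18.5 *Ankrd1* UMIs for every 1000 UMIs of 10 CM transcripts, in red blood cells 8.96 to 12.2 and over all CMs 11.5 to 13.7. The ratio differed between CM classes, at 5.40 to 8.87 in ventricular CMs and 19.6 to 26.3 in outflow tract CMs. In MCs it was 16.5 to 27.5. In 1 chamber EdC of library 6 there were 52 of the library's 213 *Ankrd1* UMIs, and in that cell CM transcripts made up 121 of every 10000 UMIs, against a mean of 16.9 in its library. Without it the *Ankrd1* level of library 6 was 0.271 in place of 0.295. Thinned shares of cells with an *Ankrd1* UMI were 10.2 to 15.3% in chamber EdCs and 2.07 to 10.2% in red blood cells. The part of free RNA of CMs in the *Ankrd1* values of EdCs and MCs was not tested.

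*Amotl2* had its highest mean in epicardial cells (0.477 ± 0.0418), whose libraries were all above those of chamber EdCs (0.325 ± 0.0611). Neural cells, of which libraries 7 and 8 held 14 and 19, were slightly above epicardial cells in those libraries (0.456 and 0.466 against 0.446 and 0.456), while chamber EdCs, neural cells, MCs and cushion EdCs overlapped. The coactivators differed between lineages. *Wwtr1* had its highest means in chamber EdCs (0.593 ± 0.206) and cushion EdCs (0.563 ± 0.0744), which overlapped each other and vascular endothelial-like cells (0.423 ± 0.111). Cushion EdCs were above chamber EdCs in libraries 5, 7 and 8 (0.611, 0.469 and 0.540 against 0.593, 0.387 and 0.519). In library 6 chamber EdCs were above (0.874 against 0.633). *Wwtr1* was lowest in blood cells, and CMs of the ventricles and atria held 0.200 ± 0.0288 and 0.165 ± 0.0405. *Yap1* was highest in epithelial cells (0.342 ± 0.0184), and the 5 classes ranked below them, from SV/AVC CMs (0.283 ± 0.0170) to cushion EdCs (0.240 ± 0.0195), overlapped their neighbours. *Tead1* was at 1.16 ± 0.0826 in epicardial cells, 1.09 ± 0.0413 in ventricular CMs and 1.07 ± 0.0952 in outflow tract CMs, which overlapped, at 0.591 ± 0.0350 and 0.588 ± 0.0806 in cushion and chamber EdCs, and at 0.281 ± 0.0938 in vascular endothelial-like cells. All 3 were near 0 in red blood cells (*Yap1* 0.0149, *Wwtr1* 0.0212 and *Tead1* 0.0563). The heat map of mean levels shows the separate maxima of the 8 genes.

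**Figure D1:**
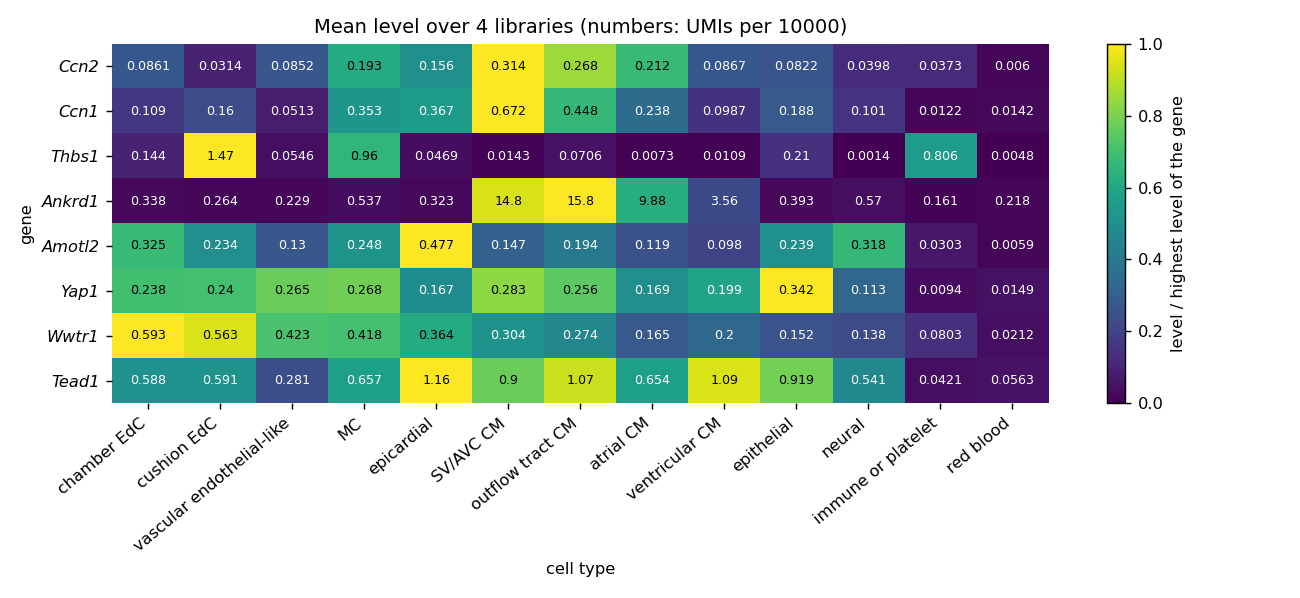
Mean level over 4 libraries of each of the 8 genes (rows) in 13 cell types (columns), printed in UMIs per 10000, with the colour giving the level relative to the highest of that gene. *Ccn1* and *Ccn2* had their highest means in SV/AVC CMs, *Ankrd1* in outflow tract and SV/AVC CMs, and *Thbs1* in cushion EdCs (1.47). Those of *Wwtr1* were in chamber and cushion EdCs, and those of *Amotl2* and *Tead1* in epicardial cells.

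Over the 52 sums of a library and cell type, the members were compared by Pearson correlation of log2(CPM + 1) as a description. These points share libraries, depth and free RNA. *Yap1* and *Tead1* had r = 0.86, *Amotl2* and *Tead1* 0.81, *Yap1* and *Wwtr1* 0.79 and *Ccn1* and *Ccn2* 0.74, whereas *Thbs1* reached at most 0.37 (with *Wwtr1*) and had -0.34 with *Ankrd1*. Among the 24191 genes with any UMI, the 3 most like *Ankrd1* were *Acta2* (smooth muscle actin, expressed in embryonic myocardium), *Pgam2* and *Csrp3* (r = 0.97 each). For *Ccn1* they were *Pkia* (0.92), *Pak3* and *Ankrd29*, and for *Ccn2* *Tmem53* (0.85), *Gm26632* and *Anapc13*. *Thbs1* was most like *Helz2* (0.85), *Nt5e* (0.79) and *Med11*. For the remaining members the closest genes were *Gm1673* (0.94), *Cntln* and *Zfyve16* for *Amotl2*, *Ctnna1* (0.94), *Rhod* and *Maged1* for *Yap1*, *Acvr1* (0.94), *Csad* and *Sept10* for *Wwtr1*, and *Ift43* (0.95), *Parva* and *Smarca1* for *Tead1*.

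In chamber EdCs, the comparison that selected the genes, *Ccn2* was at 0.0275 and 0.0327 in the control libraries and at 0.140 and 0.144 in the *Tie2-cko* libraries. The means differed 4.72-fold, and each *Tie2-cko* library was above both control libraries. The level rested on 23 and 34 UMIs in control cells and 87 and 76 in *Tie2-cko* cells, and no cell held more than 7. In thinned cells the share with a *Ccn2* UMI was 1.40% and 1.80% in controls and 6.30% and 4.22% in *Tie2-cko*, and 0.578% or less in red blood cells. Without thinning the shares were 4.8% and 4.91% against 28.5% and 11%, and thinning left out 17, 36, 10 and 27 shallower cells of libraries 5, 7, 6 and 8. The *Tie2-cko* level in chamber EdCs (0.140 and 0.144) lay near the lowest library of MCs (0.142 to 0.252) and below all libraries of SV/AVC CMs (0.169 to 0.534). *Thbs1* was at 0.130 and 0.0619 in controls and 0.184 and 0.201 in *Tie2-cko*, a 2.01-fold difference of means. Both *Tie2-cko* libraries were above both controls, and the control libraries differed from each other by a similar factor. In library 6, 1 cell held 22 of the 112 *Thbs1* UMIs, and without it the level there was 0.165. Chamber EdCs of either genotype stayed well below the 1.17 to 1.63 of cushion EdCs.

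The other targets and the factors differed less in chamber EdCs. *Ccn1* was at 0.0778 and 0.0964 in controls and 0.135 and 0.128 in *Tie2-cko* (1.51-fold), and *Amotl2* at 0.265 and 0.297 against 0.407 and 0.329 (1.31-fold). The thinned share of cells with an *Amotl2* UMI did not follow its level, at 12.3% and 12.6% in controls and 9.45% and 13.1% in *Tie2-cko*, which overlapped. *Tead1* was at 0.578 and 0.498 against 0.583 and 0.694. In the levels of each of these 3 the *Tie2-cko* libraries were the higher ones, although by a small margin for *Tead1* in library 6. *Ankrd1* (0.286 and 0.383 against 0.295 and 0.386) and *Wwtr1* (0.593 and 0.387 against 0.874 and 0.519) overlapped between the genotypes. *Yap1* was at 0.249 and 0.239 in controls and 0.227 and 0.236 in *Tie2-cko*, lower as a mean over cells and higher, 1.11-fold, when UMIs were summed over cells, so its direction depended on the weighting of cells.

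**Figure D2:**
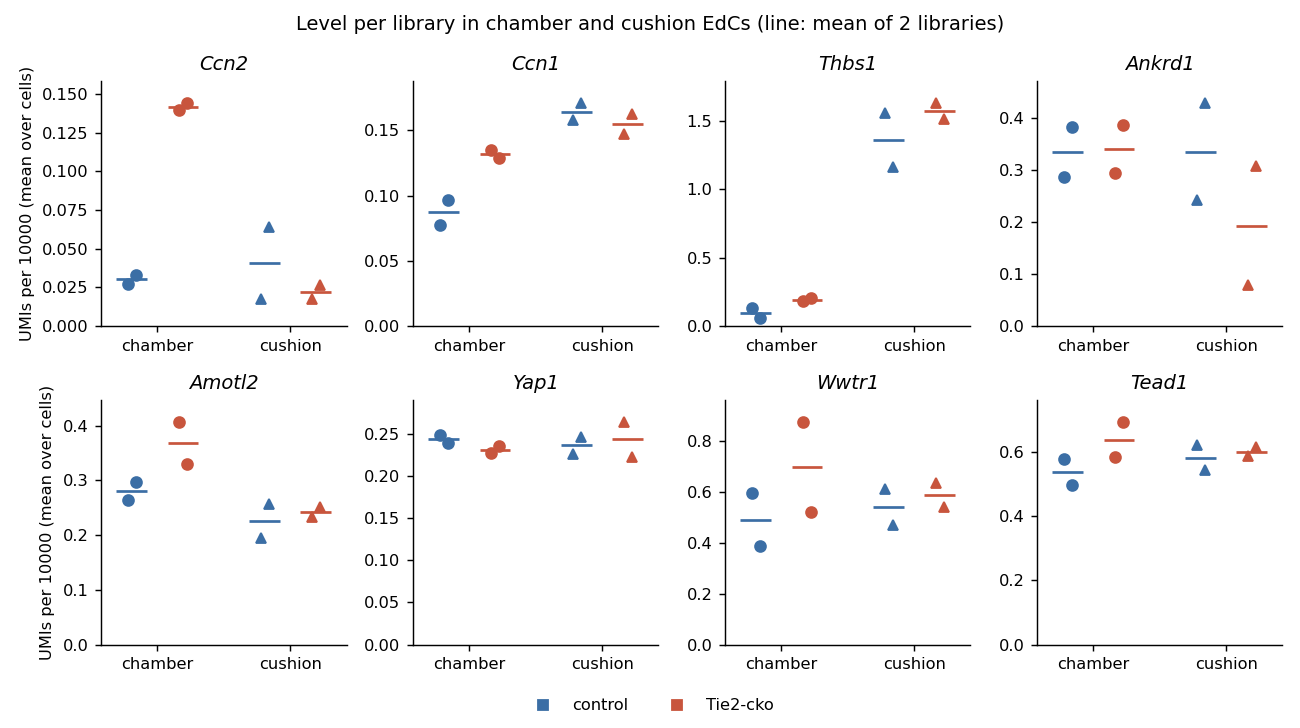
Level of each gene (UMIs per 10000, mean over the cells of a library; y axis from 0, with a scale of its own in each panel) in chamber EdCs (circles) and cushion EdCs (triangles) of control (blue) and *Tie2-cko* (red) hearts, 1 point per library and a line at the mean of 2. *Ccn2* in chamber EdCs was at 0.0275 and 0.0327 in controls and at 0.140 and 0.144 in *Tie2-cko*, while in cushion EdCs the *Tie2-cko* libraries lay within or near the control range.

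On summed counts, the log2 fold changes in chamber EdCs were 1.90 (SE 0.25) for *Ccn2*, 1.36 (SE 0.29) for *Thbs1*, 0.52 for *Ccn1*, 0.42 for *Amotl2*, 0.35 for *Wwtr1*, 0.30 for *Tead1*, 0.19 for *Ankrd1* and 0.10 for *Yap1*, against a median of 0.00 over the 11510 genes tested. On this scale 6 of the 8, all but *Ankrd1* and *Wwtr1*, had both *Tie2-cko* libraries above both control libraries, where 18.9% of all genes tested did. Nothing is read from that count, since this contrast chose the list. Of all genes tested in chamber EdCs, *Tek* alone passed the threshold of an adjusted p of 0.05, which is 0.00869% of genes. Without library 5 the log2 fold change of *Thbs1* was 1.87, and without library 7 it was 0.94, so the value rested on which control library was used. That of *Ccn2* ranged from 1.73 to 2.06 when each library was left out.

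Cushion EdCs, which derive from the same Cre lineage, gave values that the choice of genes did not use. *Ccn2* was at 0.0173 and 0.0643 in controls and 0.0174 and 0.0266 in *Tie2-cko*, from 8, 37, 7 and 24 UMIs. Its log2 fold change was -0.62 (SE 0.60), which turned to 0.61 without library 7. *Thbs1*, whose mean level over the libraries was highest in these cells, had a log2 fold change of 0.12 (SE 0.16), and *Ccn1* was at 0.158 and 0.171 in controls and 0.147 and 0.163 in *Tie2-cko*. *Ankrd1* was at 0.242 and 0.429 against 0.0785 and 0.308 (log2 fold change -0.74, SE 0.42), and the summed level of 10 CM transcripts in the same cells was 24.1 and 34.6 against 13.0 and 31.1. With libraries 5 and 6 and libraries 7 and 8 taken as pairs, which the labels do not state, *Ankrd1* had -0.77 (SE 0.16, edgeR adjusted p = 0.000316). That fit called 100 of 11412 genes in cushion EdCs, and *Ankrd1* was the 1 member among them. Without the pairs no member passed the threshold (0 of 8, edgeR adjusted p = 1.00 for each), and none separated the genotypes (0 of 8, against 27.2% of genes tested). The test called 3 of 11412 genes in cushion EdCs (0.0263%), the hemoglobin genes *Hbb-y*, *Hbb-bh1* and *Hba-a2*, all lower in *Tie2-cko*.  The difference between the chamber and cushion effects was not tested, since it rests on the contrast that chose the genes.

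In CMs, the control libraries differed from each other in *Ccn1* and *Ccn2* by more than the means of the genotypes did. Control library 7 was the highest for *Ccn1* in SV/AVC CMs (1.16, against 0.416 in control library 5 and 0.560 and 0.550 in *Tie2-cko* libraries 6 and 8), and for *Ccn2* (0.534, against 0.169, 0.229 and 0.323). The same library was the highest of the 4 for both genes in outflow tract, atrial and ventricular CMs and in MCs. Over all CMs the log2 fold change was -0.44 (SE 0.42) for *Ccn1* and -0.39 (SE 0.48) for *Ccn2*, and without library 7 these were 0.34 and 0.41. *Thbs1*, which CMs other than those of the outflow tract hardly express, had 0.49 (SE 0.34). Outflow tract CMs held 46 of its 125 UMIs in CMs of library 5, 79 of 166 in library 7, 57 of 133 in library 6 and 201 of 324 in library 8. *Ankrd1* over all CMs was at 7.81 and 8.74 in controls and 7.78 and 7.31 in *Tie2-cko*, with a log2 fold change of -0.14 (SE 0.11). In ventricular CMs it was at 3.68 and 4.59 in controls and 3.25 and 2.72 in *Tie2-cko*, which did not overlap. The cluster led by *Myh7* and *Ttn* had 3.06 and 4.09 against 1.94 and 1.87. In the larger ventricular cluster, led by *Cited1* and *Nppa*, it was at 4.07 and 4.87 against 3.99 and 3.07, a narrow gap. These subclasses were not tested, and no share of genes that did not overlap was taken in them.

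**Figure D3:**
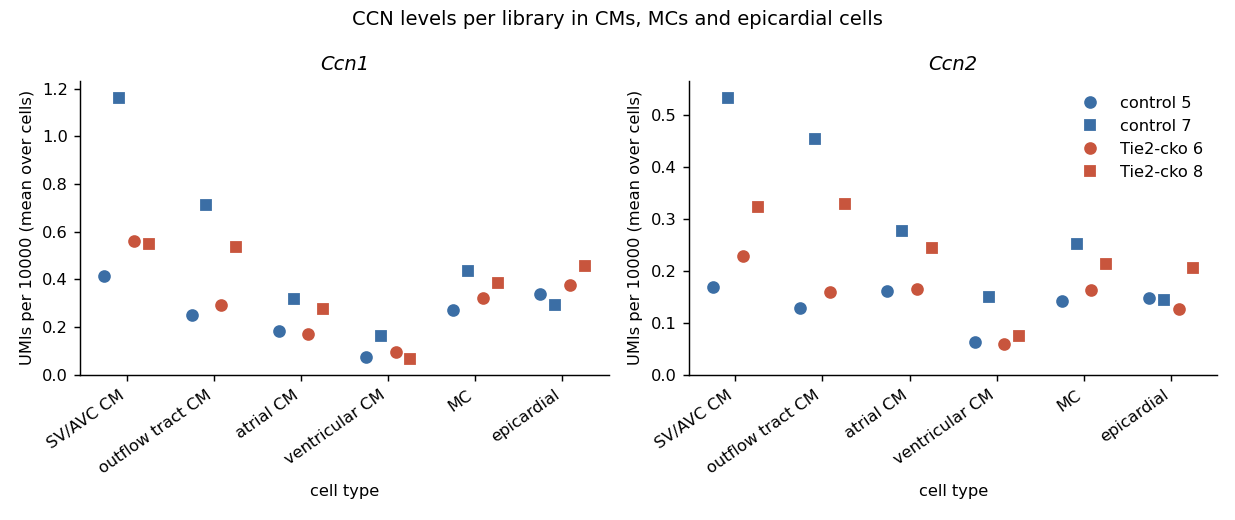
Level of *Ccn1* (left) and *Ccn2* (right) in UMIs per 10000 (y axes from 0) in 4 classes of CMs, MCs and epicardial cells, 1 point per library (control blue, *Tie2-cko* red, libraries 5 and 6 as circles and 7 and 8 as squares). Control library 7 was the highest point in all 4 CM classes and in MCs, reaching 1.16 for *Ccn1* in SV/AVC CMs, where control library 5 was at 0.416.

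None of the 8 members was called over all CMs (the test called 0 of 15621 genes, 0%, with 68 at an unadjusted p under 0.05 and 2 called by DESeq2). *Yap1* (higher) and *Ankrd1* (lower) were the members whose libraries did not overlap between genotypes, 2 of 8 against 16.9% of genes. In MCs, *Ankrd1* was at 0.545 and 0.690 in controls and 0.388 and 0.525 in *Tie2-cko* (log2 fold change -0.42, SE 0.16, edgeR adjusted p = 1.00, and 0.0393 with the same pairs as a block), while the 10 CM transcripts had a median log2 fold change of -0.47 in the same cells. *Thbs1* in MCs was at 0.905 and 0.933 against 1.02 and 0.981, with a log2 fold change of 0.10 (SE 0.12). In MCs 0 of 12599 genes were called (0%, with 137 at an unadjusted p under 0.05, 10 by DESeq2 and 37 with the block). Of the members 3 of 8 did not overlap (*Tead1* and *Thbs1* higher, *Ankrd1* lower), against 24.5% of genes.

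Epicardial cells, where *Amotl2* and *Tead1* had their highest means among the ranked cell types, had *Ccn1* at 0.341 and 0.292 in controls and 0.378 and 0.456 in *Tie2-cko* (log2 fold change 0.36, SE 0.15, edgeR adjusted p = 1.00) and *Thbs1* at 0.0302 and 0.0349 against 0.0741 and 0.0484 (0.41, SE 0.27). On the summed counts *Amotl2*, *Ccn1*, *Thbs1* and *Yap1* had both *Tie2-cko* libraries above both controls, 4 of 8 members against 24.1% of genes in either direction. No member was called, and the 4 of 11961 genes that were (0.0334%) were the hemoglobin genes *Hbb-y*, *Hba-x*, *Hbb-bh1* and *Hbb-bt*, all lower in *Tie2-cko*. Of 17 immediate early and dissociation genes, 15 were tested in epicardial cells and 9 had both *Tie2-cko* libraries above both controls (11.8% of all genes tested did), with a median log2 fold change of 0.52. Their part in the *Ccn1* value was not tested. Vascular endothelial-like cells were few (77, 30, 65 and 52 cells), and their *Tek* levels overlapped between the genotypes (0.536 and 0.779 against 0.712 and 0.405). There 7 members were tested, *Ccn1* having failed the filter on low counts, and their log2 fold changes ran from -1.77 (*Thbs1*, SE 0.86) to 0.49 (*Tead1*, SE 0.32). None was called, as were 0 of 8480 genes (0%, with 94 at an unadjusted p under 0.05 and 4 by DESeq2), and 3 members (*Amotl2*, *Tead1* and *Wwtr1*, all higher) did not overlap, against 26.5% of genes.

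**Figure D4:**
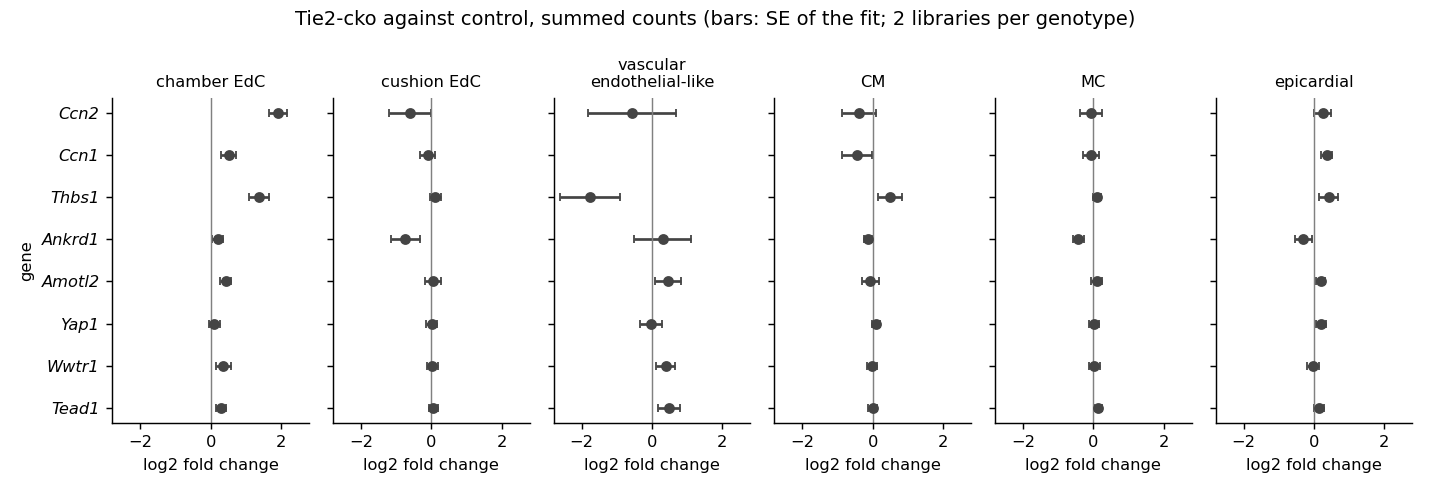
Log2 fold change of *Tie2-cko* against control on counts summed per library (x axis, the same in each panel; bars give the SE of the edgeR fit, 2 libraries per genotype) for the 8 genes in 6 cell types. *Ccn2* (1.90) and *Thbs1* (1.36) in chamber EdCs, which selected the list, lie to the right, and the wide bars of vascular endothelial-like cells go with few cells.

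The other genes of the pathway were read from lists. Of 22 conserved YAP targets, 18 were not members and 14 of these were tested in chamber EdCs. None passed the threshold, 8 had both *Tie2-cko* libraries above both controls (18.9% of all genes did), and their median log2 fold change was 0.46. The largest differences were those of *Myof*, a membrane repair protein (1.29, SE 0.30, 2.91 and 2.97 CPM in controls against 8.22 and 6.16, adjusted p = 0.32), and *Crim1*, a transmembrane protein that binds growth factors (1.05, SE 0.19, 12.7 and 10.1 CPM against 22.0 and 25.0, adjusted p = 0.21). *Lats2*, a kinase that inhibits YAP and is itself a YAP target, was at 9.41 and 8.26 CPM against 14.9 and 15.5 (0.80, SE 0.19, adjusted p = 0.35). In cushion EdCs, 16 of the 18 were tested, 2 were above and 2 below in both *Tie2-cko* libraries (14.9% and 12.3% of all genes tested were), and the median was 0.04.

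Upstream, 19 of 20 Hippo kinases and inhibitors were tested in chamber EdCs and none was called. Of these 9 had both *Tie2-cko* libraries above both controls and 1 below, where 18.9% and 19.2% of all genes tested did, with a median log2 fold change of 0.23. After *Lats2* the largest were *Mob1b* and *Sav1*, adaptors of the kinase core (0.34 each, adjusted p = 0.75). Among the cofactors, *Vgll4*, which competes with YAP for TEAD, was at 84.7 and 82.8 CPM in controls and 56.0 and 60.9 in *Tie2-cko* (-0.51, SE 0.13, adjusted p = 0.41), and the 4 tested genes other than members had a median of -0.06. In the CCN family, *Ccn4* was at 6.36 and 5.07 CPM against 14.1 and 9.92 (1.08, SE 0.26, adjusted p = 0.35), and the other 3 genes that are not members were not tested. Of the receptors of thrombospondin, *Cd47* had 0.39 (SE 0.17, adjusted p = 0.70).

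Neighbouring responses were read in the same way, and no gene of these lists was called in chamber EdCs. The counts that follow stand against the same 18.9% in chamber EdCs and 14.9% in cushion EdCs. Of 6 TGF-beta response genes tested, 3 had both *Tie2-cko* libraries above both controls (*Tgfbi* 0.94, *Smad7* 0.49 and *Ski* 0.29), and the summed level of the 7 was 1.70 and 1.58 against 2.24 and 2.26. In cushion EdCs 4 of 7 did, with a median of 0.22. Of 13 targets of SRF and MRTF, 5 did in chamber EdCs (*Fhl2* 0.49, *Vcl* 0.41 and *Cnn2* 0.29 the largest), with a median of 0.09, and in cushion EdCs none. Of 15 immediate early and dissociation genes tested, 6 did (*Socs3* 1.16, *Dusp1* 0.70 and *Klf6* 0.61 the largest), and the summed level of the 17 was 5.59 and 6.55 in controls and 7.48 and 8.20 in *Tie2-cko*. Their part in the chamber values of *Ccn1* and *Ccn2*, which are themselves induced quickly in stimulated cells, was not tested.

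Transcripts of other cells were read in chamber EdCs beside these values. Hemoglobin transcripts were lower in *Tie2-cko* for 4 of 4 genes, the largest being *Hba-a1* (-3.09), *Hba-x* (-2.79) and *Hbb-y* (-2.74), with a summed level of 90.4 and 35.6 in controls and 14.2 and 13.4 in *Tie2-cko*. The 10 CM transcripts overlapped between the genotypes (22.4 and 30.9 against 16.9 and 33.9), as did the 6 markers of cushion EdCs (1.93 and 2.18 against 2.0 and 2.35). The 8 markers of MCs were at 0.983 and 1.07 in controls and 1.40 and 1.5 in *Tie2-cko*, where 5 of the 8 were higher in both libraries and 1 was lower. No share over all genes was taken on this scale of mean levels. None of the markers of these lists was at 0 in all libraries. MC markers were also higher in *Tie2-cko* in cushion EdCs (3.62 and 3.85 in controls against 4.31 and 4.09). The part of these transcripts in the chamber values of *Ccn2* and *Thbs1*, both of which MCs express, was not tested.

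**Figure D5:**
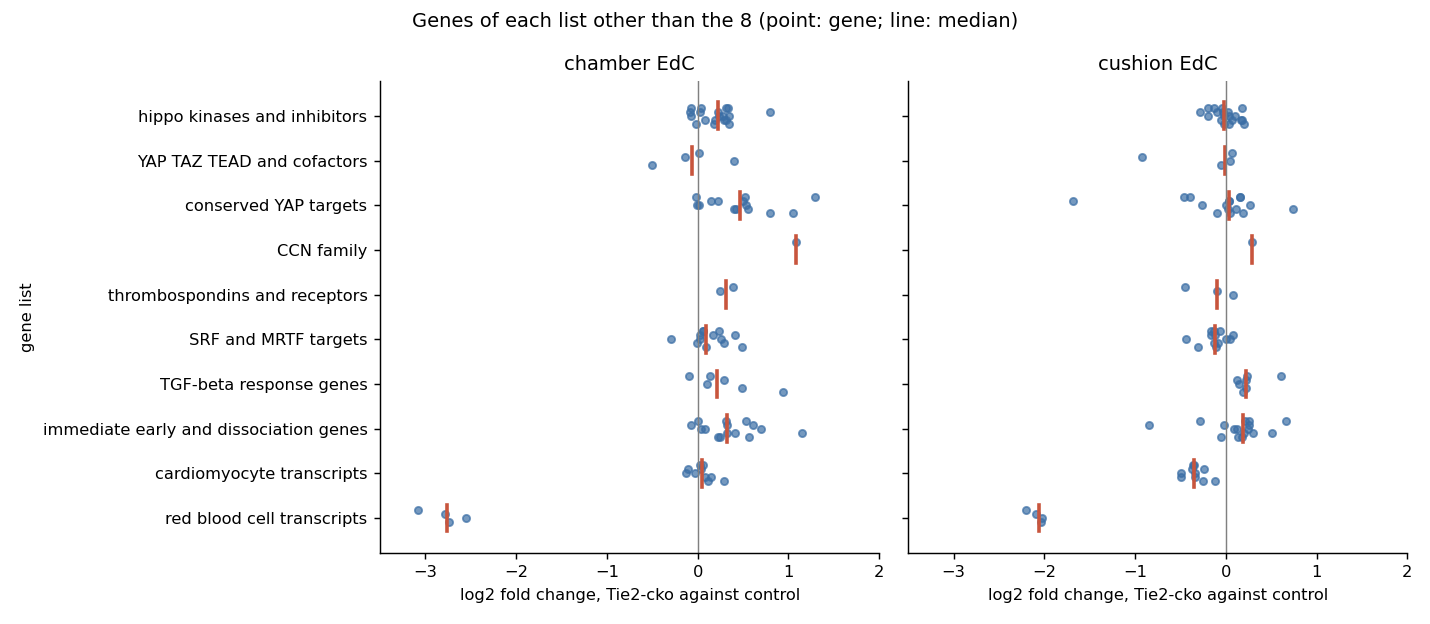
Log2 fold change of *Tie2-cko* against control (x axis) for the tested genes of 10 lists other than the 8 members in chamber EdCs (left) and cushion EdCs (right), 1 point per gene and a line at the median of the list. The median of conserved YAP targets was 0.46 in chamber EdCs and 0.04 in cushion EdCs and that of hemoglobin genes -2.77 and -2.06.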

How the data were processed

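The authors deposited filtered 10x matrices of UMI counts per gene and barcode, 1 per library, which are raw counts with no normalization. The submitters' processing notes name Cell Ranger and mm10, the file headers give Cell Ranger 6.1.2, and the study's methods name another version. Barcodes with at least 500 genes, 1000 UMIs and at most 10% mitochondrial UMIs were kept, and the highest Scrublet scores were removed as doublets at 0.8% per 1000 barcodes (scanpy 1.11.5). Libraries shared 29 to 62 barcodes (at most 0.521% of the smaller library) and held 169361996 to 259775540 UMIs. Cells were clustered with Seurat 5.3.0 (2000 variable genes without the list genes, 30 components, 20 neighbours, resolution 0.8) into types named from marker lists, a type needing more than a 0.5 share of its markers and at least 3. Clusters under 0.333 of the median UMIs, and clusters that did not meet the naming rules, stayed unnamed. A library's level is the mean over its cells of a gene's UMIs per 10000, and shares of cells with a UMI were read after thinning each cell to 5000 UMIs.

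Genotypes were compared on counts summed per library and type with edgeR 4.0.16 (quasi-likelihood test, TMM, filterByExpr, R 4.3.3), with a Benjamini-Hochberg adjusted p of 0.05 over all genes tested. The SE is the log2 fold change over the square root of F. With 2 libraries a genotype, an exact permutation test cannot go below p = 0.333, so none was run. The 8 genes, the lists and the marker genes were chosen with earlier results of these data known. The genes named are the 8, *Tek*, the 3 genes most correlated with each, list genes past the threshold, and the 3 largest differences per list among genes that did not overlap between genotypes in chamber EdCs. On simulated counts with 200 genes changed by 1 log2 unit, the test recovered 58.5% in chamber EdCs, 44.5% in cushion EdCs and 4.5% in vascular endothelial-like cells. False calls there were 7, 9 and 3. In CMs, MCs and epicardial cells it recovered 99, 131 and 109 genes with 14, 28 and 17 false calls. The changed genes were drawn at random from all genes tested, so recovery at the low counts of *Ccn2* and *Thbs1* was not measured. Alternatives were DESeq2 1.42.0, no filter on low counts, a stricter cell filter, doublets kept, resolution 1.2, a library pair block, summed UMIs, shares without thinning and each library left out. One alternative, *Thbs1* without the cell of library 6 richest in it, was chosen after seeing the data. Intervals for counting error are not given, and UMI counts of few molecules carry that error beside the spread between libraries. The *Thbs1* level of 1 epithelial cluster is not reported here.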

Additional observations from a re-analysis of the deposited data

How the results depend on the processing

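The number of genes called between genotypes depended on the fit. In chamber EdCs 1 gene was called, against 25 by DESeq2, 181 without a filter on low counts, 826 with a library pair block and 22 to 112 with each library left out. In cushion EdCs it was 3, against 9, 35, 100 and 2 to 56, and 6 each with the stricter cell filter, with doublets kept and at resolution 1.2. In vascular endothelial-like cells it was 0, against 4, 27, 33 and 0 to 58, and 3 with the stricter filter. In CMs it was 0, against 2 by DESeq2, 70 with the block and 0 to 2. In MCs it was 0, against 10, 23, 37 and 0 to 11. In epicardial cells it was 4, against 7, 0, 32 and 6 to 67, and 0 with doublets kept. Of the 8 genes, 1 was called with the block in cushion EdCs and 1 in MCs (*Ankrd1* in both), and 0 to 1 in cushion EdCs with each library left out (*Ankrd1* without control replicate 5). The labels give the genotypes no shared replicate number. The block takes libraries 5 and 6 and libraries 7 and 8 as pairs, an assumption. The methods say that libraries of a litter were pooled for sequencing without naming them, and a cluster led by *Cxcl13* and *Barx1* held 538 and 567 cells in libraries 5 and 6 and 2 and 1 in libraries 7 and 8.

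The *Ccn2* difference in chamber EdCs was 3.92-fold with UMIs summed over cells, that of *Yap1* 1.11-fold, and the share of cells with *Amotl2* differed 1.30-fold without thinning and 0.906-fold with it, so its direction turned. With each library left out, the log2 fold change of *Thbs1* in chamber EdCs ranged from 0.94 to 1.87. With each library left out, the log2 fold change in cushion EdCs ranged from -1.42 to 0.61 for *Ccn2* and from -0.072 to 0.33 for *Thbs1*, and in CMs from -0.95 to 0.34 for *Ccn1* and from -0.90 to 0.41 for *Ccn2*. The direction turned in these 4 without control replicate 7, and the cause was not tested.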
